A study of Mus musculus with 2 samples.

Results

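The S100 calcium-binding protein genes were followed in striatal tissue of MPTP-treated WT and Cx30 KO mice. Every probe whose gene name in the array files was 1 of 10 listed S100 symbols was taken, which gave 12 of the 56605 probes that were not controls. S100a10 and S100a16 had 2 probes each and S100b, S100a1, S100a4, S100a6, S100a8, S100a9, S100a11 and S100a13 had 1 each. Each of the 10 genes had a probe marked as well above background on at least 1 array, as had 22013 genes in all. Gene expression was measured on 2 single-colour arrays from positions of 1 slide, 1 array for each genotype, and each array held striatal RNA pooled from 2 male mice. All mice, WT included, were 8 weeks old and had received 4 intraperitoneal injections of 20 mg/kg MPTP, a toxin of dopaminergic neurons, at 2 h intervals, and RNA was taken on day 1 after the last injection. The Cx30 KO mice (strain label Cx30-LacZ) lack connexin 30, a gap junction protein of astrocytes encoded by Gjb6. The strain label of the WT mice is C57BL/6J, but according to the methods they were non-mutant offspring of heterozygous parents. With 1 array for each genotype there was no error between mice and no test, so all differences are between these pools only. Arrays of mice given saline were not analysed here.

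S100 proteins are small calcium sensors of vertebrates, built from a pair of EF-hands, helix-loop-helix units whose loop holds the calcium ion, and most of them work as dimers that bind a target protein once calcium is bound. In the brain S100b is best known as a product of astrocytes. S100a10 (p11) is an exception in the family, because its loops no longer bind calcium, and it forms a complex with annexin A2. S100a8 and S100a9 form calprotectin, an abundant protein of neutrophils and monocytes. Apart from S100b on chromosome 10, the listed genes lie on mouse chromosome 3.

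The probes are DNA 60-mers, and 4 of them are shown because they lie on a calcium-binding loop or on the end of the coding part. The probes of S100a1, S100a6 and S100a8 cover the calcium-binding loop of the EF-hand nearer the end of the protein. The loop is in capitals and was found as 12 codons with aspartate at the first, aspartate, asparagine or serine at the third and the fifth, and glutamate at the last position. The S100a6 probe begins inside the loop and holds 10 of its codons. The S100a10 probe covers the last 16 codons, the tail that contacts annexin A2, and ends 9 bases after the stop codon, which is in capitals.
S100a1: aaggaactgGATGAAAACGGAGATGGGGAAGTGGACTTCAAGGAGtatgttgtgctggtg
S100a6: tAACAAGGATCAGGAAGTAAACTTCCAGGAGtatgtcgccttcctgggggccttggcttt
S100a8: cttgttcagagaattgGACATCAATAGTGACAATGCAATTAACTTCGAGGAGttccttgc
S100a10: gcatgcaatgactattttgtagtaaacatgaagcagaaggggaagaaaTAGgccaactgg
Among probes of different S100 genes, the longest run of bases in common was 14, between S100a1 and S100a5, and the next was 10, between S100a1 and S100a6. S100a5 was not well above background on either array.

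The arrays were of like quality, with no saturated probe and with 56.6% (WT) and 58.2% (Cx30 KO) of probes well above background. Processed signals are linear intensities, given here with the error that the scanner software assigned to the spot. Ratios are log2 values of Cx30 KO over WT after each array was scaled to its 75th percentile, and the median over all 22013 genes was 0.03. Across 298 probes printed 10 times, a log2 ratio had an SD of 0.07 between spots, and between probes of 1 gene it had an SD of 0.26. A gene was called lower where its Z-score was −2.0 or less and its ratio 0.66 or less, and higher where its Z-score was 2.0 or more and its ratio 1.5 or more. The Z-score places a log2 ratio among the 1000 probes nearest in mean signal. These calls name genes by size and are not tests. Gjb6 itself was 15.4-fold lower on the array labelled Cx30 KO, which checks the labels, and all 9 striatal neuron markers were detected on both arrays.

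S100a10 had the lowest ratio of the family. Its brighter probe, at chr3:93368437-93368496 of the mm9 build, read 2250 ± 225 in WT against 981 ± 98.2 in Cx30 KO. Its coding probe shown above, at chr3:93368276-93368335, gave 701 ± 70.3 in WT against 317 ± 31.9 in Cx30 KO. Both probes were therefore brighter in WT, with log2 ratios of −1.13 ± 0.20 and −1.07 ± 0.20, so that signal from the coding end and from the other probe of the transcript differed by about the same factor. Of 22013 detected genes, 2.21% had a log2 ratio as low as that of S100a10 or lower. Since whole tissue was used, fewer cells that make a transcript and less transcript in each cell cannot be told apart, here and below.

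Of the 10 listed genes, 4 were lower in Cx30 KO by the criteria and 0 were higher, beside 3.39% lower and 2.37% higher among all 22013 genes. The 3 called with S100a10 were S100a16, S100a6 and S100a13. The log2 ratio was below 0 for 7 of the 10 genes, against 45.4% of all genes, and above 0 for 3, against 54.6%, and its median over the 10 genes was −0.36. S100a11, at 0.01, passed below 0 when arrays were scaled to their median.

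S100a16, a broadly expressed member of the family, had 2 bright probes. The probe at chr3:90346875-90346934 gave 11005 ± 1100 in WT against 5822 ± 582 in Cx30 KO, and the probe at chr3:90346529-90346588 gave 6554 ± 655 and 3684 ± 368. The Cx30 KO signal was the lower at both probes, with log2 ratios of −0.85 ± 0.20 and −0.76 ± 0.20. S100a6 (calcyclin), which binds the calcyclin-binding protein, was measured by the loop probe at chr3:90418160-90418219. Its signal was 4674 ± 467 in WT against 2561 ± 256 in Cx30 KO, a log2 ratio of −0.80 ± 0.20. S100a13, which takes part in the release of Fgf1 from cells without a signal peptide, was measured by a probe whose ends lie on either side of an intron, chr3:90319950-90328319. It gave 4285 ± 429 in WT against 2675 ± 268 in Cx30 KO. Its log2 ratio of −0.61 ± 0.20, a ratio of 0.656, was just inside the limit of 0.66, and the call was lost under quantile normalisation, with and without normexp background correction, with a Z-score over all probes and with ratio limits of 2 and 0.5.

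**Figure D1:**
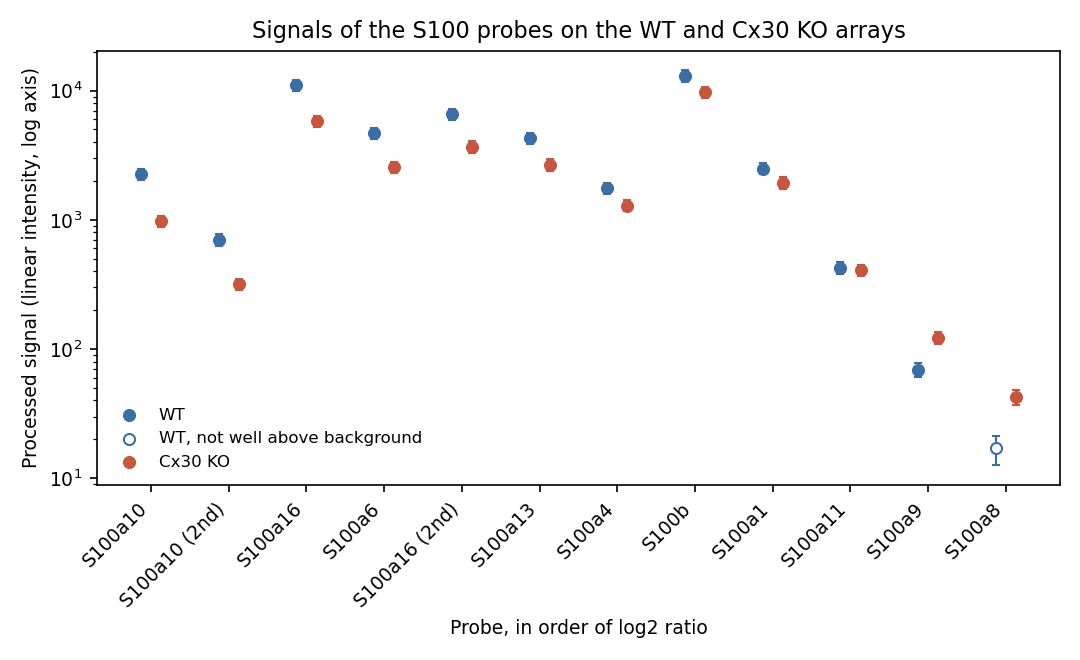
Processed signal (linear intensity on a log axis) of the 12 S100 probes on the WT array (blue) and the Cx30 KO array (red), in order of log2 ratio, with 2nd marking the dimmer probe of a gene. Bars are the software error of the spot and the open circle marks a signal not well above background; both S100a10 probes lie lower in Cx30 KO, S100a11 nearly coincides, and S100a9 and S100a8 lie higher. Heights may be compared between arrays but not between probes.

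S100b, the astrocyte member, was among the genes below 0 that were not called. Its probe at chr10:75723783-75723842 gave 13013 ± 1301 in WT against 9694 ± 969 in Cx30 KO, a log2 ratio of −0.35 ± 0.20 with a Z-score of −1.70. S100a4 (metastasin), which binds nonmuscle myosin, gave 1749 ± 175 and 1289 ± 129 at chr3:90409842-90409902, a log2 ratio of −0.37 ± 0.20. S100a1, a regulator of calcium handling in muscle that is also made in neurons, gave 2495 ± 250 and 1933 ± 193 at its loop probe, chr3:90315191-90315250, a log2 ratio of −0.30 ± 0.20. These 3 genes were all dimmer in Cx30 KO, and each ratio lay within 2 software errors of 0. None of the 3 met the criteria under any of the settings tried.

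S100a11 (calgizzarin), a partner of annexin A1 and the nearest S100 gene to S100a10, had almost equal signals of 427 ± 42.9 in WT against 408 ± 41.0 in Cx30 KO at chr3:93330022-93330081. The log2 ratio was 0.01 ± 0.20 and ranged from −0.04 to 0.01 over the settings tried, so it has no direction. The files list for this probe, besides S100a11, a transcript of a processed copy on chromosome 4, LOC102637129. The copy has a probe of its own at chr4:115740242-115740301, with no long run of bases in common with the S100a11 probe, and this gave 535 ± 53.7 in WT against 256 ± 26.0 in Cx30 KO, a log2 ratio of −0.99 ± 0.21 that met the criteria for lower. The pair of probes that share this transcript in the files thus disagreed, and what part of either signal comes from S100a11 was not tested.

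S100a9 and S100a8 lay at the other end of the family. S100a9 gave 69.4 ± 8.27 in WT against 122 ± 12.9 in Cx30 KO at chr3:90496573-90496632, a log2 ratio of 0.89 ± 0.23 with a Z-score of 1.98, just short of the limit. S100a8, at its loop probe chr3:90473778-90473837, was not well above background in WT, with 17.0 ± 4.29, and gave 42.5 ± 5.48 in Cx30 KO. Against the lowest WT signal well above background, S100a8 was 2.26-fold higher in Cx30 KO, without regard to the error of either signal. Both calprotectin genes were thus higher in Cx30 KO and both were dim, and with normexp background correction their measured log2 ratios shrank to 0.46 for S100a8 and 0.49 for S100a9. The criteria called 0 of the pair, but S100a9 was called when the Z-score used the 200 nearest probes, and S100a8 was called when it used all probes.

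Values for cells that carry calprotectin can be set beside this. Of 11 neutrophil markers, 4 were detected, with log2 ratios from −0.23 to 0.19 and a median of 0.04, and 0 were called. The granule genes Mpo, Ngp, Ltf, Retnlg and Mmp8 and the receptor Cxcr2 were not well above background on either array. The brighter detected markers were Csf3r, at 0.17, and Elane, at 0.19, and the dimmer Ly6g and Camp were at −0.09 and −0.23. Csf3r gave 33942 ± 3394 in WT while the granule genes were not detected, and whether its signal comes from neutrophils was not tested. Of 5 monocyte markers, 3 were detected, with log2 ratios from −0.17 to 0.28 and a median of 0.08, and Ccr2 and Plac8 were not. Of 4 erythroid markers, 2 were detected and both were called lower in Cx30 KO. The haemoglobin gene Hba-a1, which marks blood left in the tissue, was at 2976 ± 298 in WT against 915 ± 91.7 in Cx30 KO, and Hbb-b1 was at least 2.33-fold lower. This is the opposite direction to that of S100a8 and S100a9, and the part of blood in their values was not tested.

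**Figure D2:**
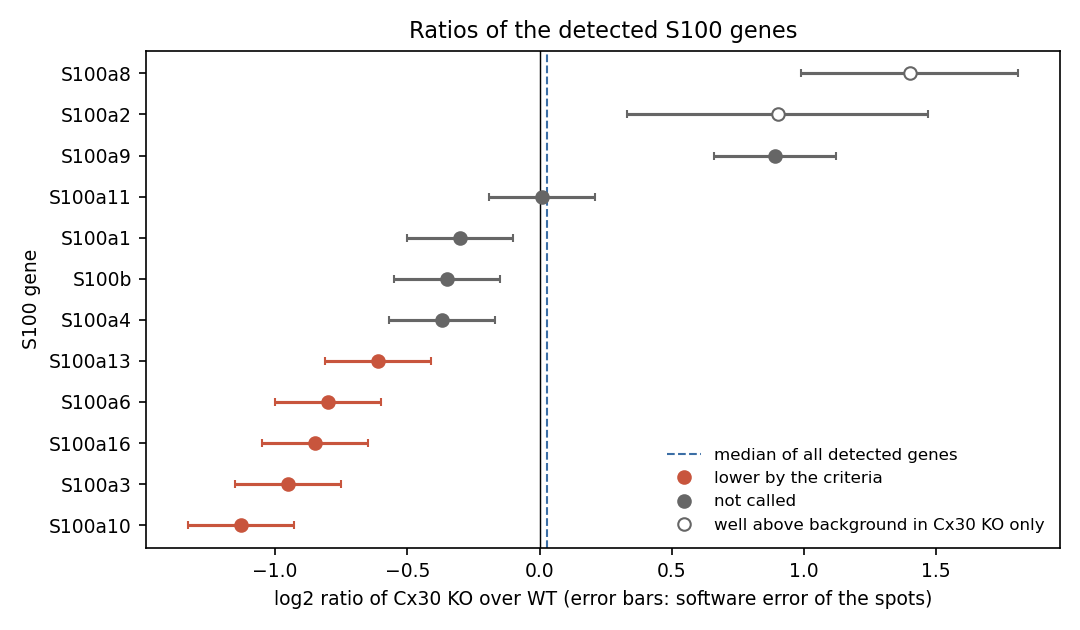
log2 ratio of Cx30 KO over WT (x axis) for the 12 detected S100 genes (y axis), with the software error of the spots as bars and the median of all detected genes, 0.03, as a dashed line. The 5 genes called lower (red) lie between −1.13 and −0.61, and open circles mark genes well above background in Cx30 KO only, whose ratio is only bounded.

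The array names 8 further S100 genes, of which 2 were detected. S100a3, known from the hair cuticle, lies between S100a16 and S100a4 and gave 765 ± 76.6 in WT against 377 ± 37.9 in Cx30 KO at chr3:90406396-90406455. Its log2 ratio of −0.95 ± 0.20 was called lower. S100a2 was well above background in Cx30 KO only, at 28.1 ± 5.48 against 15.8 ± 5.50 in WT. Against the lowest WT signal well above background it was 1.49-fold higher, and with normexp background correction its measured log2 ratio was 0.14. S100a5, S100a7a, S100a7l2, S100a14, S100g and S100z were not well above background on either array. S100pbp, whose product binds an S100 protein but is no member of the family, had 4 probes with log2 ratios from −0.10 to 0.36, none of them called.

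S100a10 was set against each relative as the difference of the log2 ratios, for which the SD between single spots was 0.10 and that between probes of 1 gene was 0.36. Against S100b the difference was −0.77 ± 0.28, or 2.10 times the SD between probes, so the S100a10 signal was further below WT than the S100b signal. The difference was −0.76 ± 0.28 against S100a4 and −0.83 ± 0.28 against S100a1, each just over 2 times that SD. Against S100a11 it was −1.13 ± 0.28, or 3.08 times that SD, and against S100a9 it was −2.01 ± 0.30. The S100a11 value is that of its own probe alone, and the probe of LOC102637129, which shares a listed transcript with it, was at −0.99. Differences against S100a13 (−0.52), S100a6 (−0.33), S100a16 (−0.28) and S100a3 (−0.18) were 1.41 times that SD or less, so S100a10 could not be placed apart from these 4 chromosome 3 genes. Over the alternative normalisations, filters and choices of probe the difference from S100b stayed between −0.79 and −0.73, and that from S100a11 between −1.13 and −1.06. Scaling of an array cancels in such a difference, and S100b and S100a11 have 1 probe each, so part of this narrow range was fixed in advance.

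The 11 detected S100 genes on chromosome 3 form 2 groups. The larger, from S100a1 to S100a9, spans 185 kb in RefSeq coordinates of GRCm38 and lies 2825 kb from S100a11, which is 28.8 kb from S100a10. S100a1 and S100a13 overlap head to head by 98 bases on opposite strands, and their log2 ratios were −0.30 and −0.61. The 4 genes called lower in the larger group did not form an unbroken run, because S100a2 lay between S100a16 and S100a3 and S100a4 between S100a3 and S100a6, and neither of these was called. Within 250 kb of a listed chromosome 3 gene, 14 other detected genes, some of them loci without a gene symbol, had a median log2 ratio of 0.07. They ranged from −0.50 to 0.61. Of them 0 met the criteria, which is near the share over all 22013 genes, 3.39% lower and 2.37% higher.

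**Figure D3:**
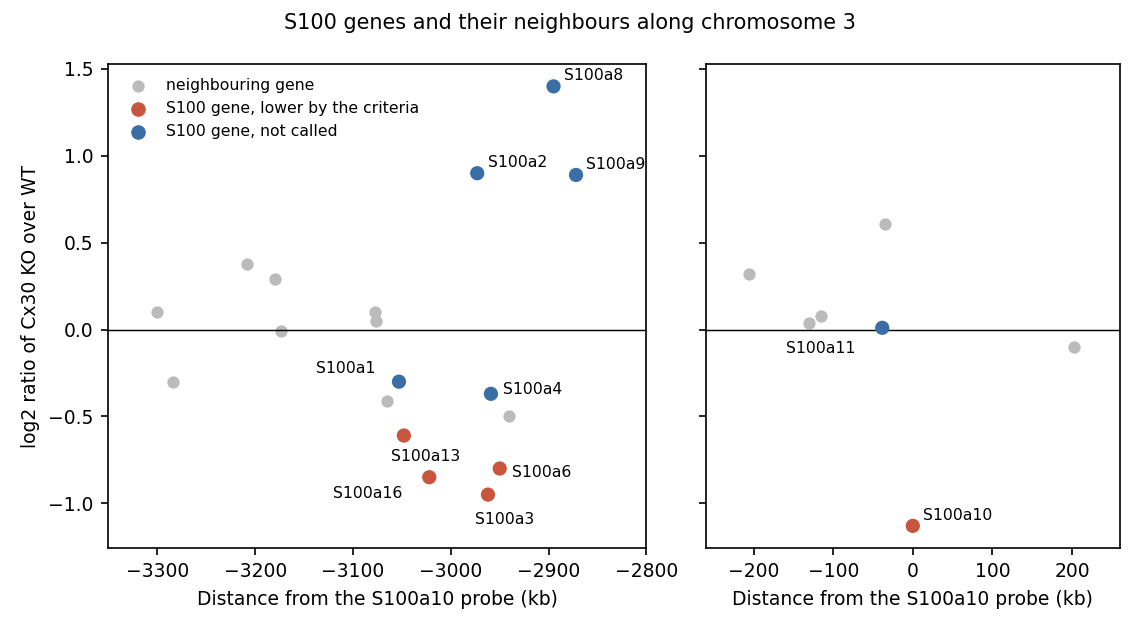
log2 ratio of Cx30 KO over WT (y axis) against the distance from the S100a10 probe in kb (x axis) for the group from S100a1 to S100a9 (left panel) and for S100a11 and S100a10 (right panel), with S100 genes in red (called lower) or blue (not called) and other detected genes in grey. The grey neighbours lie between −0.50 and 0.61, while the S100 genes range from −1.13 to 1.40; S100a8 and S100a2 are shown at their measured values.

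Of 13 genes for partners and targets of S100a10, 11 were detected, with a median log2 ratio of −0.19. Of these 1 was called lower and 0 were called higher, beside 3.39% and 2.37% of all 22013 genes. The gene called was Anxa2, which encodes the annexin that binds the S100a10 tail. It gave 4488 ± 449 in WT against 1668 ± 167 in Cx30 KO, a log2 ratio of −1.36, and its second probe gave −1.51. Anxa2 and S100a10, whose products form 1 complex, were thus both lower in Cx30 KO, by 2.56-fold and 2.18-fold. Ahnak, a large scaffold protein that binds the same complex, gave 1181 ± 118 in WT against 1244 ± 125 in Cx30 KO, a log2 ratio of 0.15, and its other probes gave −0.25 and 0.65. The genes for plasminogen activation, which the complex promotes at the cell surface, were not called, with log2 ratios of −0.19 for Plat, −0.03 for Plau and −0.09 for Plaur, and Plg was not well above background. Neither were the serotonin receptors that bind S100a10, with −0.39 for Htr1b and −0.24 for Htr4 and, at their other probes, 0.37 and −0.02.

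Of 15 partners of the other S100 proteins, all were detected, with a median log2 ratio of −0.17. Of these 1 was called lower and 0 were called higher, beside 3.39% and 2.37% of all 22013 genes. Anxa5, an annexin that binds phospholipid, was the gene called, with 2856 ± 286 in WT against 1565 ± 157 in Cx30 KO and a log2 ratio of −0.80. Cacybp, the binding protein of calcyclin, had a log2 ratio of −0.34, and Fgf1, the cargo of S100a13, one of −0.49, with other probes at −0.40 and −0.10. These were the lowest of the partners not called. Of the 15 partners 11 were below 0 and 4 above, against 45.4% and 54.6% of all genes. With the mean of the probes of each gene the median was −0.04. Of 8 receptors on the array for S100 proteins released from cells, 7 were detected and 0 were called by their brightest probe, with a median of 0.05. Ager, which encodes the receptor for advanced glycation end products, gave 711 ± 71.3 and 707 ± 70.8, and Tlr4, a receptor for calprotectin, gave 882 ± 88.3 and 935 ± 93.5, so that at these probes neither signal differed by more than its error. Other probes went against them, at 3.95, −0.11 and 0.20 for Ager and −1.72 for Tlr4, and with the mean of the probes of each gene 1 receptor was called lower and 1 higher, so that no direction is given for either receptor. Among 6 genes of the S100 fused type on the array, which lie near S100a11 on chromosome 3 and serve the skin barrier, Tchh alone was detected, with a log2 ratio of 0.08.

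**Figure D4:**
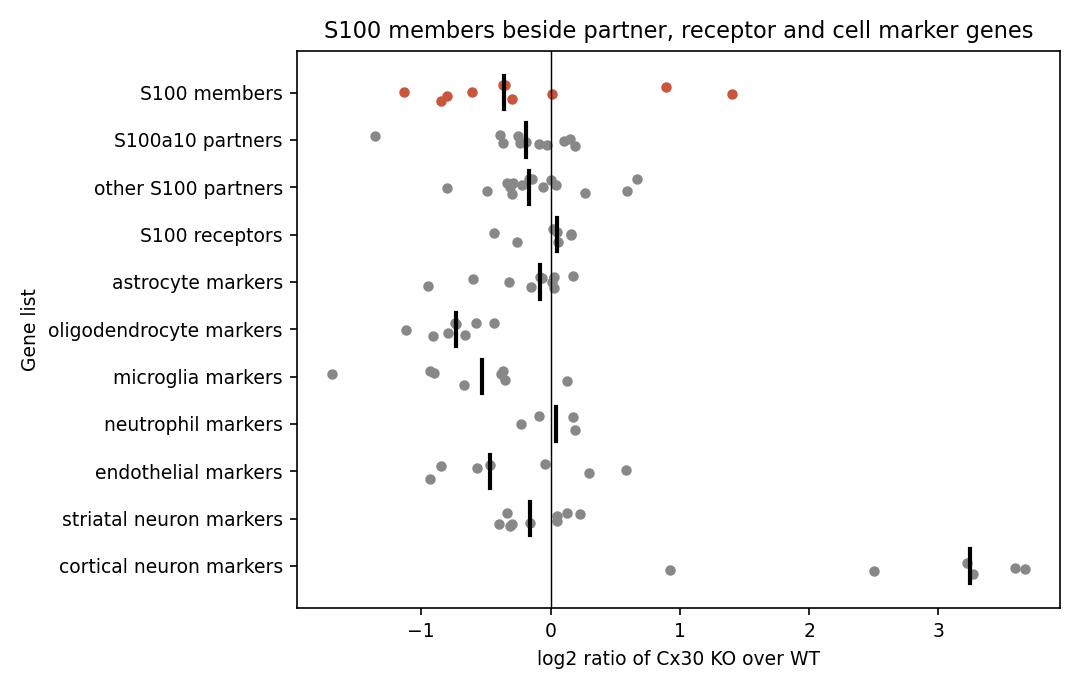
log2 ratio of Cx30 KO over WT (x axis) for the S100 members (red) and for the detected genes of partner, receptor and cell marker lists (grey), 1 point for each gene, with a black bar at the median of a list. The S100 members have a median of −0.36, astrocyte markers one of −0.08, oligodendrocyte markers one of −0.73 and cortical neuron markers one of 3.24, or 2.14 with the 4 genes that were well above background in Cx30 KO only set to their bound.

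Markers of cell types that could carry S100 transcripts were measured on the same arrays. The counts of called markers stand beside 3.39% lower and 2.37% higher among all 22013 genes. Astrocyte markers, set beside S100b, S100a10, S100a1, S100a6 and S100a16, had a median log2 ratio of −0.08, with 1 of 10 called: Aqp4, the water channel of astrocyte endfeet, at −0.95, with other probes at −1.06, 0.02 and −4.24. The brightest, Aldoc and Atp1b2, were at −0.07 and −0.60, and Slc1a2, Slc1a3, Gja1 and Sox9 were at 0.17, 0.01, 0.03 and 0.03. Aldh1l1, Slc4a4 and Fgfr3 were below 0, at −0.32, −0.15 and −0.08, and the second probe of Aldh1l1 gave −0.34. In all, 6 of the 10 were below 0 and 4 above. The lower calls were 2 with the authors' values or scaling to the array median, and 0 with a Z-score over all probes or ratio limits of 2 and 0.5. The list summed to 173257 in WT against 153492 in Cx30 KO, of which Aldoc alone held 117041 and 106181. Oligodendrocyte markers were all below 0, from −1.12 to −0.44 with a median of −0.73, and 6 of 8 were called lower, among them Cldn11 at −1.12, Mog at −0.91, Mal at −0.79, Mag at −0.74 and Mbp at −0.73. Of their other probes, 1 of Mbp gave 0.12 and that of Mag gave 0.24. The summed oligodendrocyte signal was 186828 in WT against 109669 in Cx30 KO. Of 8 microglia markers 4 were called lower, P2ry12 at −1.69, Aif1 at −0.93, Tmem119 at −0.90 and Cx3cr1 at −0.67, whereas the brightest, Itgam and Csf1r, were at 0.13 and −0.35. Oligodendrocyte and microglia markers therefore moved in the direction of the lower S100 genes, with medians as low as that of the S100 members or lower, and their part in the S100 values was not tested.

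Among vascular and lining cells, 2 of 7 endothelial markers were called lower by their brightest probe, Flt1 at −0.93 and Vwf at −0.85, with a list median of −0.47. Other probes gave −0.15 and 0.52 for Flt1 and 0.23 for Vwf, and with the mean of the probes of each gene 0 were called and the median was −0.19, as it was with normexp. Mural cell and fibroblast markers had 0 of 7 detected genes called and a median of 0.18. Of 6 ependymal markers 1 was lower, Ccdc153 at −1.06, with a median of −0.22. The choroid plexus list had Ttr lower at −1.27 and Prlr higher among 5 detected genes, with a median of −0.02, or −0.30 without Prlr. Prlr was not well above background in WT, and its 7.03-fold is the measured ratio and no lower bound. Of the 9 striatal neuron markers 0 were called, with a median of −0.16, whereas 5 of 6 cortical neuron markers were higher, with a list median of 3.24 that was 1.26 with normexp and 2.14 with bounds for the 4 genes not well above background in WT. Neurod2 was at 49.0 ± 6.43 in WT against 594 ± 59.5 in Cx30 KO. Markers of layer 5 neurons, a cortical cell type known for S100a10, had a median of −0.17, with Crym at 0.66 and Fezf2, at least 3.37-fold higher, called among 6. Of this list Fezf2 alone was not well above background in WT, like 4 of the cortical neuron markers. Whether the other genes of the list follow layer 5 cells in striatal tissue was not tested, so the median does not measure such cells. S100a10 was lower on the array with the higher cortical markers, and the part of tissue composition in its ratio was not tested.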

How the data were processed

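Total RNA (50 ng) was labelled with Cy3 and hybridised to 60-mer Agilent arrays. The processed signals deposited by the authors are linear intensities, corrected for background and trends within each array by Agilent Feature Extraction (version 10.7.1.1 in the file headers, 9.5.1.1 in the processing notes), and not normalised between arrays. The authors' value table, whose normalisation is not given in the sources used here, served as an alternative. Probe positions follow the mm9 build, and 2055 probes with older names were renamed from a RefSeq table (GRCm38.p6).

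Control and outlier spots were left out, log2 signals were averaged over the spots of each probe and each array was scaled to its 75th percentile. A probe was well above background if at least 50% of its spots were, and the brightest such probe stood for a gene. Bounds used the higher of the dim signal itself and the lowest signal well above background on that array, 19.8 in WT and 17.4 in Cx30 KO. They leave out the error of the spots and the choice of background correction, and a ratio with normexp can fall below them. The limits on Z-score and ratio are those of the methods, which name no set of probes for the Z-score. The script was tested on simulated data. The S100 members and the lists were chosen with earlier results of these data known. Named were all S100 genes, Anxa2 and Ahnak, called genes, the brightest markers, and some uncalled partners and markers chosen after their values were seen. The value of 1 marker gene is not reported here. Python 3.11.15, pandas 2.3.3, numpy 2.4.6, R 4.3.3 and limma 3.58.1 were used. Alternatives were quantile normalisation, median scaling, normexp (offset 50), the authors' table, other filters, the mean of a gene's probes, other Z-scores and other ratio limits. The number of arrays, 1 for each genotype, limits the precision.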

Additional observations from a re-analysis of the deposited data

How the results depend on the processing

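Over 11 alternative settings, 810 values were computed, of which 767 stayed close to the main value, 43 moved and, among called values, 0 reversed. A log2 value stayed close where it shifted by less than 0.26, and a count where it changed by 1.5-fold or less. The Z-score settings and the ratio limits change calls alone and could not move a log2 ratio or a median. A filter could not move the ratio of a gene while its brightest probe stayed in. Many of the unmoved values were thus fixed in advance, and their number does not measure how stable the results are. The count of 4 S100 members lower in Cx30 KO became 0 with a Z-score over all probes, where S100a10 itself had a Z-score of −1.90. It became 1 (S100a10) with ratio limits of 2 and 0.5, and 3 with quantile normalisation, with and without normexp background correction. The count of 0 higher became 1 with a Z-score over all probes (S100a8), 1 with a Z-score over the 200 nearest probes (S100a9), and 1 with a Z-score over probes well above background on both arrays (S100a8), an alternative chosen after seeing the data. Among all genes the lower calls were 446 with a Z-score over all probes and 428 with ratio limits of 2 and 0.5, in place of 746. The added Z-score gave 1093 higher calls in place of 521. Of 130 log2 ratios of S100 genes under alternatives 3 moved by more than 0.26 (the SD between probes for 1 gene), all with normexp and all of dim genes, S100a8 to 0.46, S100a9 to 0.49 and S100a2 to 0.14. These 130 include the ratios under the settings that could not move them. With a Z-score over all probes and with ratio limits of 2 and 0.5 respectively, the lower calls were 0 and 1 for oligodendrocyte, 1 and 1 for microglia and 0 and 0 for endothelial markers. The median over the 22013 genes lay between −0.02 and 0.04 over the settings (−0.07 over all 37008 genes with no filter on dim probes), and that of the S100 members from −0.41 to −0.33. No paired analysis was possible because each genotype had 1 array, and for the same reason no replicate could be left out. Signals near the background, those of S100a8, S100a9 and S100a2, limit what can be said of their ratios.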
